A study of Mus musculus with 12 samples.

Results

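The surgery comparison sets kidneys of mice that had lost 1 kidney to unilateral nephrectomy (UNx) against kidneys of sham-operated mice, with Cre status held as a term in the model, so that the difference is averaged over CrePlus and CreMinus animals. All 12 count columns of the deposited table were used, 1 for each sample of the series, with 6 UNx and 6 sham libraries, and every gene in the table entered the test. The groups were UNx CrePlus, UNx CreMinus, sham CrePlus and sham CreMinus, with 3 libraries each. All 4 groups came from adult mice of a Pkd1 model of polycystic kidney disease, 6 to 8 weeks old, and per the labels' protocols all were induced with tamoxifen, with Cre in CrePlus animals and without it in CreMinus animals. Kidney tissue was taken 4 weeks after UNx or the sham operation, so the UNx libraries measure the remaining kidney. The labels name neither the promoter that drives Cre, the deleted part of Pkd1, the strain nor the hour of harvest. Replicates are numbered in accession order and the numbers pair no samples. The p-values below measure the spread between these samples.

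Loss of a kidney makes the remaining one grow, mainly by enlargement of its tubule cells with some cell division, while each nephron filters more and handles more solute such as phosphate. Removing a kidney is also used in Pkd1 models because the growth that follows is known to speed cyst formation. The kidney holds its own circadian clock, in which the activators ARNTL, CLOCK and NPAS2 switch on the period and cryptochrome genes and a set of output genes, whose products feed back on the activators.

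Depth fell into 2 ranges, with a total of 18914300 to 22480895 counts for each of 8 libraries and 41699032 to 42785476 for each of 4. The 4 deep libraries were all from UNx kidneys (UNx CrePlus replicates 1, 2 and 3, and replicate 1 of UNx CreMinus). Xist and the Y-linked genes marked 3 UNx libraries (UNx CrePlus replicates 1 and 2 and UNx CreMinus replicate 1) and 2 sham libraries (sham CrePlus replicate 3 and sham CreMinus replicate 3) as male. The first principal component, which followed sex, held 44.3% of the variance. The numbers in the sample titles ran from 1749 to 1754 in UNx libraries, and in sham libraries from 1744 to 1748 plus 1755. Depth and title number therefore run largely with surgery and cannot be fully told apart from it. Leaving out the 4 deep libraries leaves UNx CreMinus replicates 2 and 3 as the only UNx libraries. With Cre status in the model, sham CrePlus libraries then set only the Cre term. Every fit below without the deep libraries thus compares these 2 UNx libraries with the sham CreMinus libraries, within CreMinus kidneys. Such a fit changes depth and Cre status together. Every UNx CrePlus library was deep, and UNx and sham differed in sex make-up in CrePlus kidneys but not in CreMinus kidneys. Contrasts between CrePlus and CreMinus kidneys below therefore cannot be told apart from depth and sex. Kidney identity was plain: the proximal tubule markers summed to 17925 to 43186 CPM (counts scaled to a common library size after TMM normalization) in UNx libraries and 20161 to 52289 CPM in sham libraries. In RNA from whole tissue, fewer cells of a type and less RNA per cell cannot be told apart.

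No gene passed the test across all genes. With edgeR's quasi-likelihood test, 0 of 14970 genes (0.00%) had a Benjamini-Hochberg adjusted p under 0.05, and the smallest adjusted p was 0.582, for Kcnt1. At an unadjusted p under 0.05 there were 901 genes, 6.02% of those tested, with 500 higher in UNx kidneys (3.34%) and 401 lower (2.68%). List counts below are to be read beside these shares, which were 4.77% and 3.85% with a sex term. Without the 4 deep libraries they were 0.520% and 0.307%. With counts of the deep libraries thinned at random to the median total of the others, they were 3.22% and 2.67%. Fold changes below are log2 values of UNx over sham with their standard error (SE), and a positive value means higher in UNx kidneys. The median log2 fold change over all tested genes was -0.0032, and 49.0% of genes were above 0. DESeq2 on the same counts and terms called 15 of 19718 genes (0.0761%), with 11 higher and 4 lower in UNx kidneys, and had 1101 (5.58%) below 0.05 before adjustment, while limma-voom called 0 and had 953. All 14 genes past 0.05 after adjustment in the second version of the authors' deposited table were among the 15. Of the 15, 4 had 6 UNx libraries that did not overlap with the 6 sham libraries, and over all genes 24 of 14970 (0.160%) were so separated, 10 with UNx above sham (0.0668%) and 14 below (0.0935%). In the text that follows, "rose" and "fell" are used only of genes that DESeq2 called, and no named gene passed edgeR, where the adjusted p was 0.582 for Kcnt1, 0.753 for Per3 and at least 0.812 for each of the others.

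Kcnt1, which encodes a potassium channel opened by sodium ions, fell in UNx kidneys and was the gene of smallest p in edgeR and in DESeq2. Kcnt1 (gene 227632, chromosome 2, 25863791 to 25918273 on GRCm38) had 3.85, 5.61 and 7.49 CPM in UNx CrePlus replicates 1 to 3 and 8.46, 9.61 and 11.9 CPM in UNx CreMinus replicates 1 to 3, against 10.1, 16.9 and 26.4 CPM in sham CrePlus and 22.5, 24.8 and 22.4 CPM in sham CreMinus replicates 1 to 3. Of the UNx libraries, 5 lay below every sham library, and UNx CreMinus replicate 3 lay above sham CrePlus replicate 1 alone. The mean was 7.82 ± 2.87 CPM in UNx and 20.5 ± 6.05 CPM in sham kidneys (SD, n = 6 each), and the log2 fold change was -1.44 ± 0.23 (SE). It was -1.65 in CrePlus and -1.22 in CreMinus kidneys. DESeq2 gave it an adjusted p of 6.05e-06, and called it in 12 of 12 fits that each left out 1 library.

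The phosphate and vitamin D list held 2 of the 15 genes that DESeq2 called. Cyp24a1, the enzyme that inactivates vitamin D hormone (gene 13081, chromosome 2, 170482957 to 170497145), rose in UNx kidneys. It had 86.0, 70.9 and 215 CPM in UNx CrePlus and 166, 165 and 186 CPM in UNx CreMinus replicates 1 to 3, against 12.1, 35.9 and 29.0 CPM in sham CrePlus and 103, 47.8 and 34.3 CPM in sham CreMinus replicates 1 to 3. The groups overlapped only through sham CreMinus replicate 1, which lay above UNx CrePlus replicates 1 and 2. The log2 fold change was 1.87 ± 0.38 (SE), the DESeq2 adjusted p was 0.00037, and the call was lost in 1 of 12 fits, the one without sham CrePlus replicate 3, where the adjusted p was 0.144. Slc34a2, a sodium-phosphate cotransporter best known from intestine and lung (chromosome 5, 53049353 to 53071664), also rose, with a log2 fold change of 0.55 ± 0.12. It had 13.4, 12.9 and 11.8 CPM in UNx CrePlus against 10.2, 11.7 and 9.09 CPM in sham CrePlus kidneys, and 10.1, 9.70 and 10.5 CPM in UNx CreMinus against 5.07, 5.68 and 6.55 CPM in sham CreMinus kidneys. UNx lay above sham within each Cre status, and the difference was 0.30 in CrePlus and 0.81 in CreMinus kidneys, with an unadjusted interaction p of 0.0184 and an adjusted one of 1.00.

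The rest of the phosphate and vitamin D list gave no further gene at an unadjusted p under 0.05: of 14 members tested, 10 were higher and 4 lower in UNx kidneys, 2 reached it as higher and 0 as lower, and the median log2 fold change was 0.09. Slc34a1, the main phosphate cotransporter of the proximal tubule, had a log2 fold change of 0.05 ± 0.11, and Slc34a3, its companion there, had 0.31 ± 0.19. Cyp27b1, the enzyme that makes the hormone, had 2.91, 7.500 and 17.8 CPM as lowest, median and highest UNx value and 2.99, 5.81 and 10.5 CPM in sham kidneys. Its UNx and sham libraries lay interleaved, with a log2 fold change of 0.45 ± 0.47. Vdr, the vitamin D receptor, had 0.14 ± 0.11. The count of 2, with 3.34% of all genes higher at that p, was 4 in female libraries alone (1.35%) and 2 without the 4 deep libraries (0.520%).

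Psat1 and Mthfd2, enzymes of serine synthesis and of the mitochondrial folate cycle that uses serine, rose in UNx kidneys. Psat1 (chromosome 19, 15905123 to 15925059) had 65.3, 54.2 and 46.2 CPM in UNx CrePlus and 55.7, 32.7 and 28.2 CPM in UNx CreMinus replicates 1 to 3, against 38.7, 30.8 and 26.1 CPM in sham CrePlus and 17.9, 23.8 and 20.7 CPM in sham CreMinus replicates 1 to 3. Within each Cre status every UNx library lay above every sham library, while across Cre status UNx CreMinus replicates 2 and 3 lay within the sham CrePlus range. The log2 fold change was 0.85 ± 0.17, at 0.79 in CrePlus and 0.91 in CreMinus kidneys, and DESeq2 gave an adjusted p of 0.00876. Mthfd2 averaged 5.58 ± 1.43 CPM in UNx and 3.43 ± 0.870 CPM in sham kidneys (SD, n = 6 each), a log2 fold change of 0.69 ± 0.15, and 4 UNx libraries lay above the sham range. Psph, which completes serine synthesis, was the third of the 15 tested members at an unadjusted p under 0.05, with 0.22 ± 0.10. Phgdh, the first enzyme of the same path, had 0.53 ± 0.34, and Asns, a target of the amino acid response, had 0.17 ± 0.18. In all, 10 members were higher and 5 lower in UNx kidneys, 3 reached an unadjusted p under 0.05 as higher and 0 as lower, and the median was 0.17. Over all genes 3.34% were higher at that p. With a sex term the count of 3 became 5, with 4.77% of all genes.

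**Figure D1:**
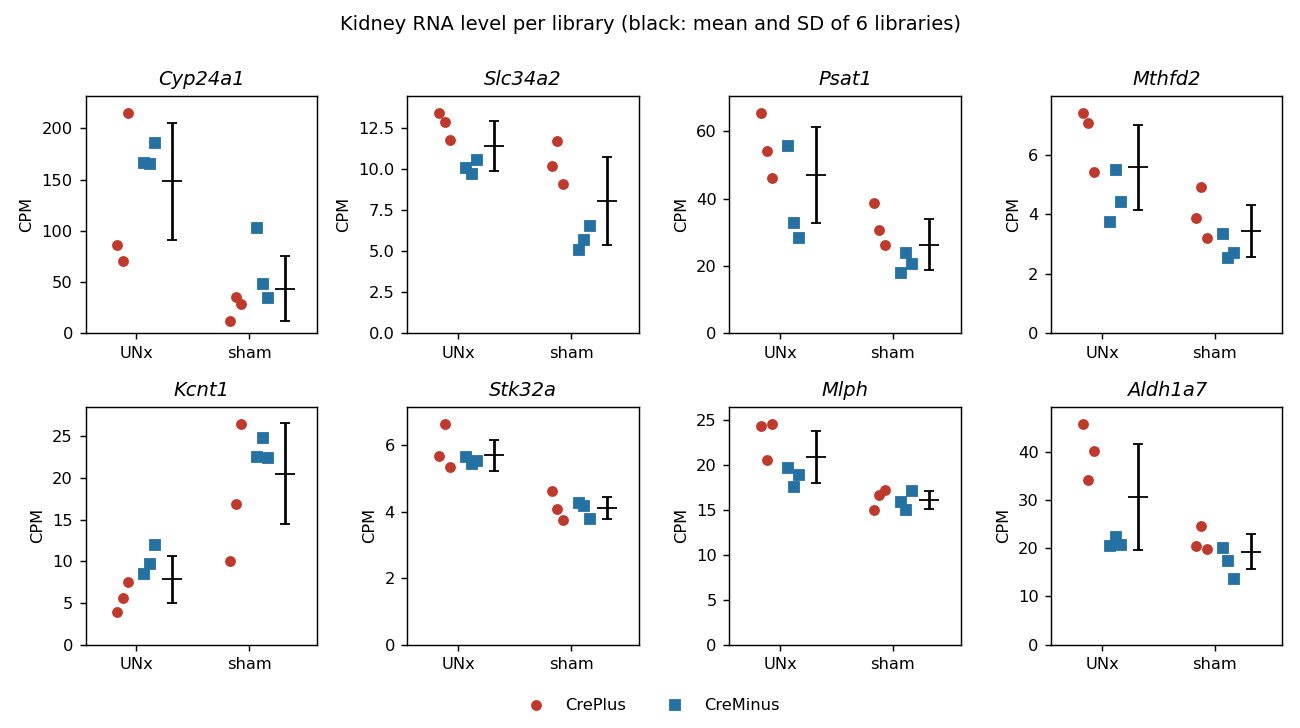
CPM of 8 genes in each of 12 kidney libraries, with UNx left of sham, CrePlus as red circles, CreMinus as blue squares, and the mean and SD of 6 libraries in black. Kcnt1 averages 7.82 CPM in UNx and 20.5 CPM in sham kidneys, and only for Stk32a and Mlph of these genes do all UNx libraries lie above all sham libraries.

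Among circadian clock genes, activators were higher and several repressor and output genes lower in UNx kidneys. The labels do not give the hour of harvest, so its part in these differences could not be tested. Of 18 clock list members tested, 4 were higher and 14 lower in UNx kidneys, 3 reached an unadjusted p under 0.05 as higher and 5 as lower, and 3 had no overlap of UNx and sham libraries. Over all genes the last 3 shares were 3.34%, 2.68% and 0.160%. Per3, a period gene of the repressor arm (gene 18628, chromosome 4, 150997018 to 151044707), fell in UNx kidneys. It had 26.2, 16.2 and 20.7 CPM in UNx CrePlus and 16.4, 23.7 and 28.2 CPM in UNx CreMinus replicates 1 to 3, against 36.7, 35.6 and 40.5 CPM in sham CrePlus and 43.3, 43.7 and 32.5 CPM in sham CreMinus replicates 1 to 3. All 6 UNx libraries lay below all 6 sham libraries. The log2 fold change was -0.82 ± 0.14, at -0.84 in CrePlus and -0.81 in CreMinus kidneys, the DESeq2 adjusted p was 0.00037, and DESeq2 called it in 12 of 12 fits without 1 library.

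Arntl, which encodes the activator BMAL1 (chromosome 7), rose in UNx kidneys. It had 7.37, 13.7 and 8.36 CPM in UNx CrePlus and 10.96, 7.27 and 13.2 CPM in UNx CreMinus replicates 1 to 3, against 6.82, 3.73 and 3.21 CPM in sham CrePlus and 5.34, 2.72 and 6.50 CPM in sham CreMinus replicates 1 to 3. All UNx values lay above all sham values, though the nearest pair, UNx CreMinus replicate 2 and sham CrePlus replicate 1, was close. The log2 fold change was 1.10 ± 0.26, at 1.09 in CrePlus and 1.107 in CreMinus kidneys, and DESeq2 called it in 5 of 12 fits without 1 library. Npas2, which can stand in for CLOCK as partner of BMAL1, had 4.28, 9.11 and 16.6 CPM as lowest, median and highest UNx value and 2.11, 4.22 and 7.01 CPM in sham kidneys, with 5 UNx libraries above the sham range and a log2 fold change of 1.05 ± 0.33. Clock itself had 0.17 ± 0.08.

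The output genes Tef and Dbp, which encode transcription factors that bind D-box sequences, and the repressor gene Nr1d2 were lower in UNx kidneys. Tef (chromosome 15, 81802673 to 81826863) had 243, 286 and 311 CPM as lowest, median and highest UNx value and 312, 365 and 464 CPM in sham kidneys. The 2 ranges did not overlap but nearly met, and the log2 fold change was -0.38 ± 0.09. Nr1d2 averaged 134 ± 14.04 CPM in UNx and 164 ± 17.9 CPM in sham kidneys (SD, n = 6 each), with a log2 fold change of -0.29 ± 0.09, Dbp had -0.71 ± 0.25, and Per2, another period gene, had -0.58 ± 0.23. Dbp and Per2 overlapped between the groups, and Per2 reached 34.1 CPM in UNx CrePlus replicate 1, next to 18.2 CPM in the second highest UNx library. Nr1d1 (-0.21 ± 0.12) and Hlf (-0.21 ± 0.13) did not reach an unadjusted p under 0.05. With a sex term the counts were again 3 higher and 5 lower (4.77% and 3.85% of all genes). Female libraries alone gave 2 and 5 (1.35% and 1.24%) and male libraries alone 2 and 5 (4.68% and 3.61%). With the deep libraries thinned they were 3 and 5 (3.22% and 2.67%). Without the 4 deep libraries they were 1 and 3 (0.520% and 0.307%).

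Promoters of 3 of these clock genes are shown because each holds a sequence word read by the clock's own factors. The windows run from 250 bases before to 50 bases after the RefSeq start site on GRCm38.p6, 5′ to 3′ on the gene's strand, with matches in capitals, searched on both strands. Per3 (chr4:151044616-151044915, minus strand) holds 2 D-box words, TTATGTAA, whose first bases lie 205 and 158 bases before the start. Tef (chr15:81802423-81802722, plus strand, 1 of 2 start sites) holds an E-box, CACGTG, the word bound by BMAL1 with its partner. Arntl (chr7:113207261-113207560, plus strand, 1 of 2 start sites) holds AAGTAGGTCA, an element of the kind bound by the ROR and REV-ERB (NR1D1 and NR1D2) receptors, from base 28 after the start.
Per3 promoter: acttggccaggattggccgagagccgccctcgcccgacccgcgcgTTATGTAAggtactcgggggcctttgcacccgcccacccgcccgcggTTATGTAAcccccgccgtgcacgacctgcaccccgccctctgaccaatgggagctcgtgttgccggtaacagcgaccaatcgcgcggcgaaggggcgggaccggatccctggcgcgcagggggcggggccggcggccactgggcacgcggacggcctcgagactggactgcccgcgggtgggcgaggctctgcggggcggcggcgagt
Tef promoter: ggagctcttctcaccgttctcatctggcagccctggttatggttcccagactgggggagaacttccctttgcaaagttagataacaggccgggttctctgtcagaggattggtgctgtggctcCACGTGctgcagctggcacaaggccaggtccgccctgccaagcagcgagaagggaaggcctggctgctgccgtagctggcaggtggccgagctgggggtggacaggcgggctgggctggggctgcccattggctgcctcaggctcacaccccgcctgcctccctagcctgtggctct
Arntl promoter: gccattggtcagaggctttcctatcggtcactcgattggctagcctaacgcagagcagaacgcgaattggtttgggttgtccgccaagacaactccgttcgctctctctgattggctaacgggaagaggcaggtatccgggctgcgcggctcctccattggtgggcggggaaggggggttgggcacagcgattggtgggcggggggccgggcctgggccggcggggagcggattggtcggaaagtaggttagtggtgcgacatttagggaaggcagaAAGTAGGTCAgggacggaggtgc
The D-box words TTATGTAA or TTACGTAA were found in 1.06% of 32851 RefSeq promoter windows, CACGTG in 7.15% and the ROR response element, of which the Arntl word is 1 form, in 0.219%. Of the 18 clock genes, 15 matched a window, and 1 of these (Per3) held a D-box word, 5 an E-box (Bhlhe41, Ciart, Cry1, Per1 and Tef) and 1 (Arntl) the receptor element. A match is a description of these windows and not a binding site.

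**Figure D2:**
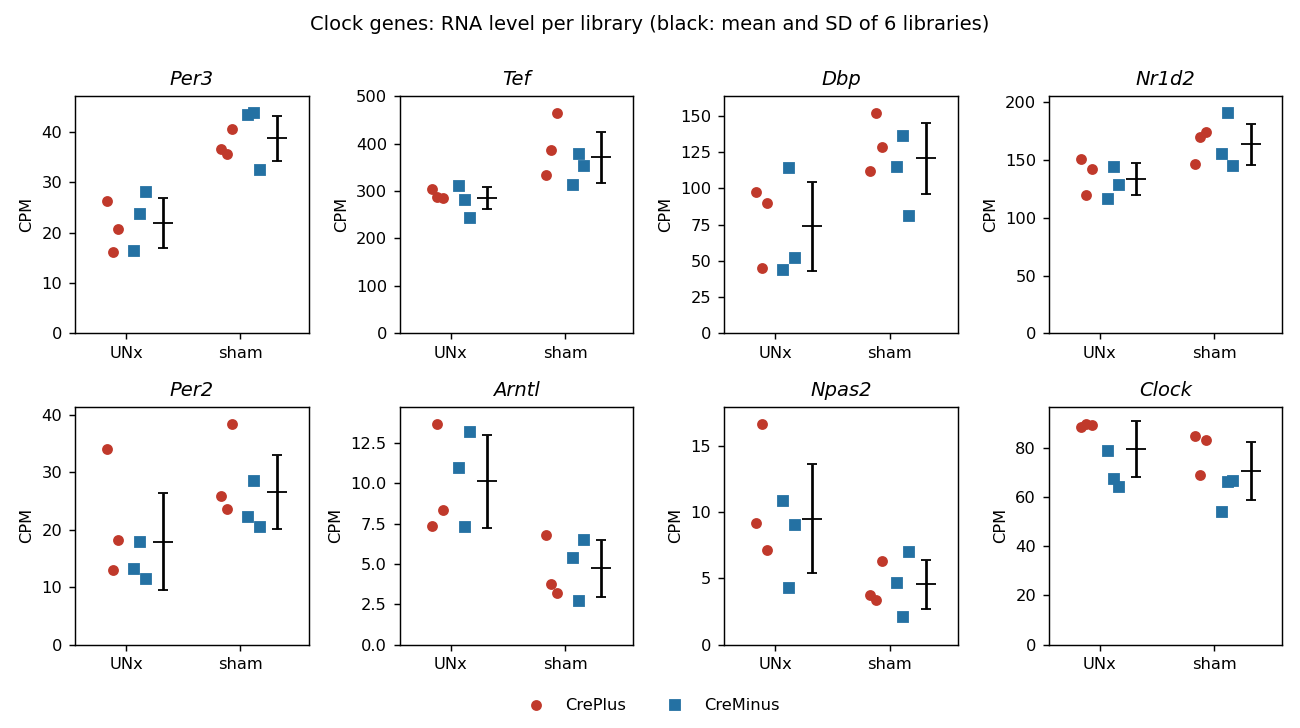
CPM of 8 clock genes in each of 12 kidney libraries, with UNx left of sham, CrePlus as red circles, CreMinus as blue squares, and the mean and SD of 6 libraries in black. Per3 and Tef lie lower in all UNx libraries and Arntl lies higher in all UNx libraries, and the other 5 genes overlap between UNx and sham.

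The remaining genes of smallest p covered other functions. Higher in UNx kidneys were Stk32a, a protein kinase (0.47 ± 0.10), Mlph, an adaptor that joins vesicles to myosin motors (0.37 ± 0.08), Aldh1a7, an aldehyde dehydrogenase (0.60 ± 0.13), Slc25a30, a mitochondrial carrier (0.48 ± 0.11), Pdia5, a protein disulfide isomerase (0.34 ± 0.08), and Arhgap11a, a GTPase-activating protein (0.76 ± 0.18). DESeq2 called all of these except Slc25a30, whose DESeq2 adjusted p was 0.0885. Stk32a had 5.33, 5.58 and 6.62 CPM as lowest, median and highest UNx value and 3.76, 4.12 and 4.62 CPM in sham kidneys, with no overlap. Aldh1a7 had 45.8, 34.2 and 40.2 CPM in UNx CrePlus, 20.6, 22.3 and 20.6 CPM in UNx CreMinus, 20.6, 24.6 and 20.0 CPM in sham CrePlus and 20.1, 17.3 and 13.6 CPM in sham CreMinus replicates 1 to 3. Each UNx group lay above the sham group of the same Cre status, the CreMinus pair by a small margin, while the UNx CreMinus libraries lay within the range of all sham libraries. Its log2 fold change was 0.88 in CrePlus and 0.32 in CreMinus kidneys, with an unadjusted interaction p of 0.023 and an adjusted one of 1.00. Aldh1a7 has a close paralog, Aldh1a1, and counting could split reads between the genes.

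Lower in UNx kidneys were Sfpq, a splicing factor (-0.32 ± 0.07), Pnpla1, a lipase relative (-0.41 ± 0.10), Glyctk, glycerate kinase (-0.43 ± 0.11), Ccdc73, a coiled-coil protein gene (-0.43 ± 0.11), Slc5a3, which carries the osmolyte myo-inositol into cells (-0.59 ± 0.15), Phip, which encodes a bromodomain protein (-0.25 ± 0.06), and Abt1, an activator of basal transcription (-0.26 ± 0.07). Sfpq was the only one of these called by DESeq2, with an adjusted p of 0.0444. Sfpq averaged 114 ± 11.6 CPM in UNx and 143 ± 8.68 CPM in sham kidneys (SD, n = 6 each), with 5 UNx libraries below the sham range. Phip had 29.6, 35.1 and 36.0 CPM as lowest, median and highest UNx value and 38.1, 40.2 and 45.3 CPM in sham kidneys, with no overlap. Slc5a3 had 76.5, 132 and 190 CPM in UNx and 150, 188 and 232 CPM in sham kidneys on the same measures, and its highest UNx library, UNx CreMinus replicate 3, lay among the sham values. Outside the naming rule, DESeq2 also called 1700029J07Rik as lower (-0.53 ± 0.12 in edgeR) and Gabra3, a subunit of the GABA receptor, as higher (2.54 ± 0.68). Gabra3 had 5.86, 0.517 and 0.595 CPM in UNx CrePlus and 3.01, 3.45 and 5.17 CPM in UNx CreMinus, against 0.339, 0.287 and 0.395 CPM in sham CrePlus and 0.317, 0.188 and 1.73 CPM in sham CreMinus replicates 1 to 3. Of the UNx libraries, 4 were above all sham libraries and UNx CrePlus replicates 2 and 3 were not.

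Cell cycle genes were the list with most members at an unadjusted p under 0.05. All 25 members tested were higher in UNx kidneys and 21 reached it, against 3.34% of all genes as higher, with a median log2 fold change of 0.98. Cdk1, the kinase that drives entry into mitosis, had 12.4, 16.1 and 3.94 CPM in UNx CrePlus and 4.53, 8.55 and 1.72 CPM in UNx CreMinus, against 3.14, 2.73 and 4.25 CPM in sham CrePlus and 2.85, 1.55 and 2.67 CPM in sham CreMinus replicates 1 to 3. UNx CrePlus replicates 1 and 2 were highest, UNx CreMinus replicates 1 and 2 also lay above the sham range, and UNx CrePlus replicate 3 and UNx CreMinus replicate 3 lay within it. Its log2 fold change was 1.38 ± 0.40. Bub1b, a spindle checkpoint kinase, had 1.29 ± 0.38, Nusap1, a spindle protein, 1.33 ± 0.41, Mki67, the proliferation marker, 1.17 ± 0.39, Top2a, a topoisomerase, 1.22 ± 0.39, Ccnb1, a mitotic cyclin, 1.25 ± 0.44, Ccne1, a cyclin of entry into DNA synthesis, 1.25 ± 0.37, and Pcna, the DNA polymerase clamp, 0.24 ± 0.10. Mki67 had 43.3 and 42.6 CPM in UNx CrePlus replicates 1 and 2, 5.57 to 15.4 CPM in the other UNx libraries and 5.03 to 13.9 CPM in sham libraries.

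The mean level of the 25 genes in each library, on a log2 scale centred on each gene, was 1.22 and 1.36 in UNx CrePlus replicates 1 and 2, -0.77 to 0.39 in the other UNx libraries and -0.83 to 0.10 in sham libraries. The count at an unadjusted p under 0.05 was 20 with a sex term (4.77% of all genes) and 18 to 23 without 1 library (1.99% to 4.12%). It was 21 in male libraries alone, where 4.68% of all genes were higher at that p, and 1 in female libraries alone, where 1.35% were. With the deep libraries thinned it was 21 (3.22%). Without the 4 deep libraries it was 0, with 0.520% of all genes. That fit sets 2 UNx CreMinus libraries against the sham CreMinus libraries. In it 24 members were still higher and 1 lower, with a median of 0.65. Whether the surgery difference itself differs between the sexes was not tested. The median was 1.18 in CrePlus kidneys, with 21 members at an unadjusted p under 0.05, where 4.15% of all genes were higher. In CreMinus kidneys it was 0.69, with 24 higher, 1 lower and 0 at that p, where 0.668% of all genes were higher. Macrophage markers were also highest in UNx CrePlus replicates 1 and 2, with centred levels of 0.86 and 1.02 against -0.43 to 0.01 in the other UNx libraries and -0.75 to 0.64 in sham libraries, and their part in the result was not tested. The cell-cycle homology word TTTGAA, an element known from promoters of G2 and mitosis genes, was found in windows of 9 of the 21 cell cycle genes that matched one, and in windows of 20.2% of all 27025 genes, or 17.9% of windows, with both strands searched. The Cdk1 window (chr10:69352863-69353162, minus strand, same build and span) is shown because Cdk1 had the smallest p of the list, and it holds the word 71 and 15 bases before the start, in capitals.
Cdk1 promoter: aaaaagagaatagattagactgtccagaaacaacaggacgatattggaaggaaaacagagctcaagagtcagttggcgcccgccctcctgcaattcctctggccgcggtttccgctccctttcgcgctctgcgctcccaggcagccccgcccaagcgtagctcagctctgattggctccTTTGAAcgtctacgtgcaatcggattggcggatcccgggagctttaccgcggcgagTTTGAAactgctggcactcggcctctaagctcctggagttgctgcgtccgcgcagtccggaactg

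All 17 interferon-stimulated genes tested were higher in UNx kidneys, 7 of them at an unadjusted p under 0.05, against 3.34% of all genes as higher, with a median log2 fold change of 0.43. Ifi44, an interferon-induced gene, had 22.0, 25.8 and 23.7 CPM in UNx CrePlus and 19.7, 20.5 and 21.4 CPM in UNx CreMinus, against 18.4, 12.1 and 11.96 CPM in sham CrePlus and 18.3, 17.4 and 12.2 CPM in sham CreMinus replicates 1 to 3. All UNx libraries lay above all sham libraries, and the log2 fold change was 0.56 ± 0.14. Irf7, the transcription factor that amplifies the interferon response, had 0.56 ± 0.16, Rsad2, an antiviral enzyme, 0.35 ± 0.11, Isg15, a ubiquitin-like modifier, 0.50 ± 0.17, Usp18, which removes it, 0.43 ± 0.16, Ifit1, an RNA-binding antiviral protein, 0.49 ± 0.19, and Oasl2, a relative of the RNA-sensing OAS enzymes, 0.47 ± 0.21. The median was 0.71 in CrePlus and 0.05 in CreMinus kidneys, with 14 members at an unadjusted p under 0.05 in CrePlus (4.15% of all genes were higher there) and 0 in CreMinus kidneys (0.668%). The interaction had an unadjusted p of 0.0288 for Irf7 and 0.0469 for Ifit1, and an adjusted p of 1.00 for both. Irf5, named in the series title as a macrophage factor of polycystic kidneys, had 11.2, 14.04 and 27.6 CPM as lowest, median and highest UNx value and 11.8, 16.1 and 22.7 CPM in sham kidneys, with a log2 fold change of -0.05 ± 0.19. The interferon count was 7 with a sex term (4.77% of all genes) and 5 to 9 without 1 library (1.99% to 4.12%). It was 8 in male (4.68%) and 1 in female libraries alone (1.35%). With the deep libraries thinned it was 8 (3.22%). Without the 4 deep libraries, and so in CreMinus kidneys alone, it was 0 (0.520%), with 14 members higher and 3 lower and a median of 0.11.

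**Figure D3:**
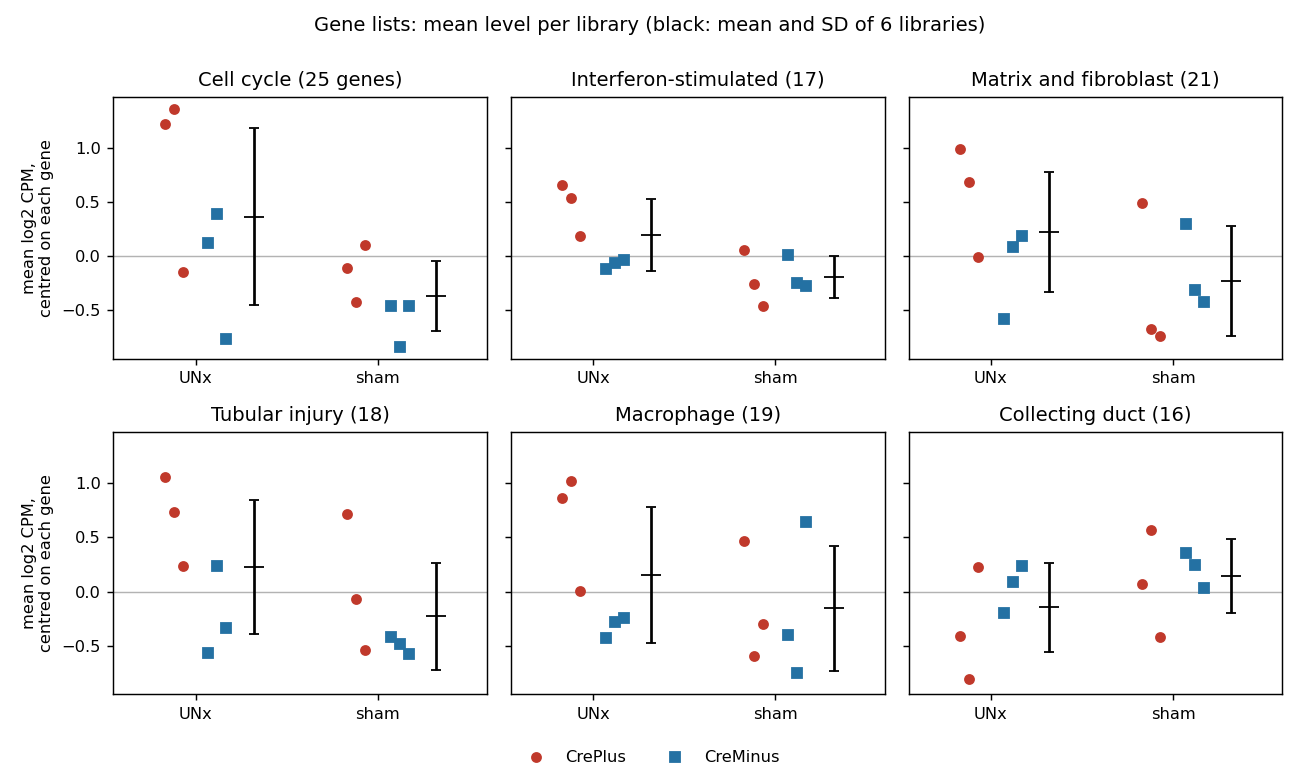
Mean level of 6 gene lists in each of 12 libraries, as log2 CPM centred on each gene, with UNx left of sham, CrePlus as red circles, CreMinus as blue squares, and the mean and SD of 6 libraries in black. UNx CrePlus replicates 1 and 2 are the highest libraries in the cell cycle list, at 1.22 and 1.36, and in the macrophage list, at 0.86 and 1.02.

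Most matrix, injury and p53 genes had values above 0. At an unadjusted p under 0.05, 3.34% of all genes were higher. Of 21 matrix and fibroblast genes, 20 were higher and 1 lower, and 4 reached an unadjusted p under 0.05 as higher and 0 as lower, with a median of 0.47 (0.77 in CrePlus and 0.13 in CreMinus kidneys). Col4a1, a basement membrane collagen, had 552, 568 and 302 CPM in UNx CrePlus and 300, 362 and 340 CPM in UNx CreMinus, against 412, 199 and 250 CPM in sham CrePlus and 330, 235 and 256 CPM in sham CreMinus replicates 1 to 3. UNx CrePlus replicates 1 and 2 alone lay above the sham range, the log2 fold change was 0.51 ± 0.20, and Sparc, a collagen-binding protein, had 0.58 ± 0.24. The count of 4 fell to 0 without any 1 of UNx CrePlus replicates 1 and 2 and sham CrePlus replicates 2 and 3, and was 9 without sham CrePlus replicate 1, fits in which 1.99% to 2.73% and 3.92% of all genes were higher at that p. Of 18 tubular injury genes, 17 were higher and 1 lower, with 3 at an unadjusted p under 0.05, all higher, and a median of 0.33. That count was 1 without any 1 of the same 4 libraries and 6 without sham CrePlus replicate 1. Anxa2, an annexin, had 0.33 ± 0.14.

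Cdkn1a, the cell cycle inhibitor p21 and a p53 target, had 49.1, 46.8 and 37.3 CPM in UNx CrePlus against 25.2, 25.8 and 19.6 CPM in sham CrePlus kidneys, and 8.23, 15.4 and 10.7 CPM in UNx CreMinus against 10.999, 8.60 and 8.65 CPM in sham CreMinus kidneys. Every UNx CrePlus library lay above every sham library while UNx CreMinus replicates 1, 3 and 2 lay below, within and above the sham CreMinus range. The log2 fold change averaged over Cre status was 0.61 ± 0.17, at 0.91 in CrePlus and 0.28 in CreMinus kidneys, with an unadjusted interaction p of 0.0603. Trp53inp1, another p53 target, had 0.41 ± 0.12. Of 15 p53 targets, 14 were higher and 1 lower, 5 reached an unadjusted p under 0.05 as higher (3.34% of all genes) and 0 as lower, and the median was 0.15. In CrePlus kidneys 9 matrix, 6 injury and 8 p53 members were higher at an unadjusted p under 0.05 (4.15% of all genes). In CreMinus kidneys 0 members of each list were (0.668%). With the deep libraries thinned, 4, 2 and 4 members were higher at that p (3.22%). Without the 4 deep libraries, and so in CreMinus kidneys alone, 0 members of the matrix, injury and p53 lists reached it. Their medians there were 0.33, 0.21 and 0.07.

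Among 19 macrophage and myeloid genes, 16 were higher and 3 lower in UNx kidneys, 0 reached an unadjusted p under 0.05, and the median of 0.24 was 0.86 in CrePlus and -0.29 in CreMinus kidneys. Their summed level ran from 182 to 418 CPM in UNx and from 162 to 401 CPM in sham libraries. Without sham CreMinus replicate 3, 9 members reached an unadjusted p under 0.05 as higher, with 3.49% of all genes. Without the 4 deep libraries, and so in CreMinus kidneys alone, 3 members were higher and 16 lower, with a median of -0.20. Csf1r, the receptor for macrophage growth factor, had -0.22 ± 0.11, with 5 UNx libraries below the sham range, and Ccr2, a chemokine receptor of monocytes, had 0.57 ± 0.37. Cxcl16, a chemokine that tubule cells also make, had 85.2, 83.4 and 81.2 CPM in UNx CrePlus, 49.0, 53.4 and 53.5 CPM in UNx CreMinus, 60.7, 60.4 and 49.5 CPM in sham CrePlus and 41.1, 54.2 and 50.7 CPM in sham CreMinus replicates 1 to 3. Only its UNx CrePlus libraries stood above the sham range, and the log2 fold change was 0.32 ± 0.10. Pecam1, an endothelial adhesion molecule, had 0.35 ± 0.14 and Tek, an endothelial receptor, 0.34 ± 0.16. The endothelial list had 10 higher and 2 lower of 12 members, with 1 at an unadjusted p under 0.05 as higher and 0 as lower, and with a sex term 5 were higher at that p.

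All 16 collecting duct genes tested were lower in UNx kidneys, with 2 at an unadjusted p under 0.05, the water channels Aqp4 and Aqp3, and a median log2 fold change of -0.26. Over all genes 2.68% were lower at that p. With a sex term 14 members were lower and 2 higher, with a median of -0.18. In CrePlus kidneys all 16 were lower with a median of -0.37, and in CreMinus kidneys 13 were lower and 3 higher with a median of -0.14. Aqp4 had 48.7, 70.1 and 106 CPM in UNx CrePlus and 80.4, 73.5 and 67.1 CPM in UNx CreMinus, against 97.9, 219 and 78.7 CPM in sham CrePlus and 103, 187 and 115 CPM in sham CreMinus replicates 1 to 3. Of the UNx libraries, 4 lay below the sham range, sham CrePlus replicate 2 and sham CreMinus replicate 2 were highest, and the log2 fold change was -0.85 ± 0.26, at -0.82 in CrePlus and -0.88 in CreMinus kidneys. Aqp3 had -0.35 ± 0.14, the vasopressin-regulated channel Aqp2 had -0.26 ± 0.25, and Slc26a4, the anion exchanger pendrin of intercalated cells, had -0.43 ± 0.24. The summed level of the list was 817 to 1653 CPM in UNx and 1051 to 2153 CPM in sham libraries. The count was 5 without UNx CrePlus replicate 3 (2.84% of all genes). It was 1 without any 1 of UNx CrePlus replicates 1 and 2, UNx CreMinus replicate 2, sham CrePlus replicate 2 and sham CreMinus replicate 1 (1.74% to 2.30%). With the deep libraries thinned it was 2 (2.67%). Without the 4 deep libraries, and so in CreMinus kidneys alone, it was 0 (0.307%), with 9 members higher and 7 lower and a median of 0.02.

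Of 19 proximal tubule markers tested, 10 were higher and 9 lower in UNx kidneys, with 1 and 2 at an unadjusted p under 0.05 and a median of 0.02. With a sex term 14 were higher and 5 lower, with 4 and 3 at that p, and without the 4 deep libraries 13 and 6, with 0 at that p. Lrp2, the endocytic receptor megalin, had 1908, 2402 and 3319 CPM as lowest, median and highest UNx value and 2706, 3227 and 3462 CPM in sham kidneys. Of its UNx libraries, 4 lay below the sham range, and the log2 fold change was -0.36 ± 0.12. Aqp1, the water channel of that segment, had -0.32 ± 0.11. In the SLC22 family of organic ion carriers, 6 were higher and 9 lower of 15, with 0 and 2 at an unadjusted p under 0.05. These 2 were Slc22a4, a carrier of ergothioneine (-0.24 ± 0.07), and Slc22a19, an organic anion carrier with close paralogs (-0.46 ± 0.14).

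Metabolic and stress lists were read against an unadjusted p of 0.05, with 3.34% of all genes past it as higher and 2.68% as lower. Among 15 oxidative stress genes 12 were higher and 3 lower in UNx kidneys, with 4 and 0 past it, including Gpx3, the secreted glutathione peroxidase made by proximal tubules (0.32 ± 0.12), and Srxn1, sulfiredoxin (0.18 ± 0.07). Gpx3 had 25951, 31105 and 36672 CPM as lowest, median and highest UNx value and 20747, 24796 and 27297 CPM in sham kidneys, with 4 UNx libraries above the sham range. Of 20 cholesterol synthesis genes, 16 were higher and 4 lower, with 3 and 2 past it. Their log2 fold changes ran from -0.43 to 0.31, and the synthesis enzyme Nsdhl (0.23 ± 0.06) was higher. Cytosolic ribosomal protein genes were lower in 20 of 20 members with 0 past it, and their median of -0.08 was small. In the mitochondrial respiratory chain and in fatty acid oxidation, 0 of 20 and 0 of 18 members reached it, with medians of 0.02 and -0.01. The immediate-early gene Klf6 had 0.32 ± 0.14 and Egr1 had 1.00 ± 0.50, and Egr1 stood at 50.2 CPM in UNx CrePlus replicate 2 and at 4.81 to 16.8 CPM in the other UNx libraries.

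Growth factor lists gave 1 member each at an unadjusted p under 0.05, Nrg1 as higher and Irs2 as lower. Of all genes, 3.34% were higher and 2.68% lower at that p. Nrg1, a ligand of ErbB receptors, had 0.49 ± 0.16 and Errfi1, an inhibitor of the same receptors, 0.38 ± 0.18. In the insulin-like growth factor list, Irs2, an adaptor of the insulin and growth factor receptors, had -0.41 ± 0.18 and Igfbp5, a binding protein, 0.17 ± 0.08. Of its 15 members, 5 were higher and 10 lower. With a sex term 1 was higher and 3 lower at an unadjusted p under 0.05 (4.77% and 3.85% of all genes). Ubtf, a factor of ribosomal RNA transcription, had -0.15 ± 0.05 and Polr1a, the large subunit of the polymerase it serves, -0.13 ± 0.07. Pkd1 itself had 45.5, 39.6 and 45.1 CPM in UNx CrePlus against 64.1, 46.1 and 45.9 CPM in sham CrePlus kidneys, and 49.4, 49.3 and 71.6 CPM in UNx CreMinus against 76.8, 60.3 and 57.8 CPM in sham CreMinus kidneys. UNx and sham overlapped and the log2 fold change was -0.23 ± 0.12, with an adjusted p of 0.853. Bicc1, an RNA-binding gene whose loss gives cystic kidneys in mice, had 0.27 ± 0.10. Ajuba, a partner of the Hippo kinase LATS, had -0.20 ± 0.07 and Amotl2, a target and inhibitor of YAP, -0.21 ± 0.11. Ubtf, Bicc1 and Ajuba were the only members of their lists at an unadjusted p under 0.05.

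Markers of fat, blood and lymphoid cells were also read. The adipocyte marker Cidec was at 6.13 CPM in sham CrePlus replicate 3, against 0.172 to 0.782 CPM in UNx libraries and 0.136 to 0.752 CPM in the other sham libraries, and Pparg, the adipocyte receptor, was also highest there, at 4.84 CPM. The log2 fold change of Cidec was -1.77 ± 1.01 and that of Pparg -0.60 ± 0.32. Alas2, of heme synthesis in red cells, had -0.75 ± 0.32 and Slc4a1, shared by red cells and intercalated cells, -0.27 ± 0.32. The 4 tested B and plasma cell genes summed to 1.65 to 3.34 CPM in UNx and 1.74 to 4.30 CPM in sham libraries, and the 8 tested T and NK cell genes to 3.50 to 11.0004 CPM and 2.87 to 9.87 CPM.

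Other lists had 0 members at an unadjusted p under 0.05. Glycolysis and gluconeogenesis had 12 higher and 6 lower of 18, chaperones and endoplasmic reticulum stress 9 and 5 of 14, the heat shock response 4 and 7 of 11, and complement 9 and 4 of 13. Distal nephron genes (loop of Henle and distal tubule) had 9 higher and 8 lower of 17, podocyte genes 1 and 9 of 10, the renin-angiotensin list 4 and 5 of 9. The medians of these 7 lists ran from -0.16 for podocyte genes to 0.11 for complement. Some of these tallies differed in other fits. With a sex term, 3 members of the distal nephron list, 1 of glycolysis and 1 of complement were higher at an unadjusted p under 0.05. Without the 4 deep libraries the distal nephron list had 16 higher and 1 lower with a median of 0.21, and podocyte genes had 6 higher and 4 lower. MHC class II genes, which present antigen to helper T cells, had 1 higher and 7 lower of 8 averaged over Cre status. In CrePlus kidneys all 8 were higher, with a median of 0.29 and 0 at an unadjusted p under 0.05. In CreMinus kidneys all 8 were lower, with a median of -0.42 and 3 at that p, where 0.628% of all genes were lower. The difference between these was not tested over the list.

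The surgery difference was next set out by Cre status. Sex and depth were not alike in these comparisons. UNx CrePlus replicates 1 and 2 and sham CrePlus replicate 3 were male, and every UNx CrePlus library was deep. In CreMinus kidneys UNx replicate 1 and sham replicate 3 were male, and of these libraries only UNx replicate 1 was deep. A contrast between CrePlus and CreMinus kidneys therefore cannot be told apart from sex and depth. In CrePlus kidneys edgeR called 0 genes and had 1022 (6.83%) before adjustment, and DESeq2 called 9 (0.0456%). In CreMinus kidneys edgeR called 0 and had 194 (1.30%) before adjustment, and DESeq2 called 2 (0.0101%). The interaction, which tests the difference between these directly, had 0 calls in edgeR with 277 (1.85%) at an unadjusted p under 0.05, and 0 calls in DESeq2 with 381 (1.93%). Across the 14970 genes, which are not independent replicates, the fold changes in CrePlus and CreMinus kidneys came from separate libraries and had a Pearson r of 0.223 and a Spearman correlation of 0.267, and 8892 genes had the same sign in both. Kcnt1, Per3, Arntl, Psat1 and Cyp24a1 kept their sign and a difference of at least 0.79 in size in both. Bcl6, a transcriptional repressor, had 79.5, 125 and 19.9 CPM in UNx CrePlus against 10.9, 16.3 and 9.83 CPM in sham CrePlus kidneys, and 50.5, 20.3 and 22.9 CPM in UNx CreMinus against 28.2, 32.04 and 32.6 CPM in sham CreMinus kidneys. Its log2 fold change was 2.60 in CrePlus and 0.02 in CreMinus kidneys. Cish, a feedback inhibitor of cytokine receptors that signal through STAT5, had 20.4, 15.4 and 26.9 CPM in UNx CrePlus against 55.0, 38.7 and 77.7 CPM in sham CrePlus kidneys, and 15.5, 30.8 and 25.2 CPM in UNx CreMinus against 29.6, 22.3 and 20.99 CPM in sham CreMinus kidneys, or -1.45 and -0.03. The interaction had an unadjusted p of 0.00661 for Bcl6 and 0.00758 for Cish, and an adjusted p of 1.00 for both.

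**Figure D4:**
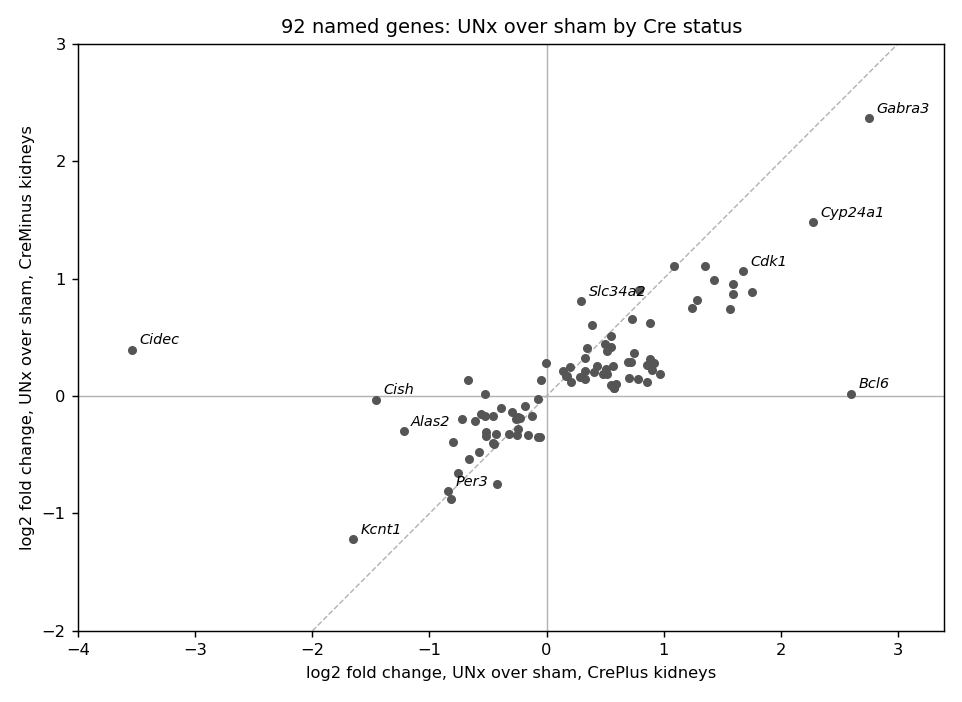
Log2 fold change of UNx over sham in CrePlus kidneys on the x axis and in CreMinus kidneys on the y axis for 92 named genes, 1 point each, with a dashed line of equal values. Kcnt1, at -1.65 and -1.22, and Cyp24a1, at 2.27 and 1.48, lie far from 0 on both axes, while Bcl6 is at 2.60 and 0.02 and Cish at -1.45 and -0.03.

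The number of called genes depended on single libraries. With edgeR it was 0 in 11 of 12 fits that each left out 1 library, and 7 without UNx CreMinus replicate 3, where Kcnq1ot1, Gm17066, Ccdc62, Grk4, A130077B15Rik, Ppp1r9a and Olfr613, named here after their values were seen, were all lower in UNx kidneys. In CreMinus kidneys the 194 genes at an unadjusted p under 0.05 were 946 without that library. DESeq2's 15 calls became 274 when replicate 3 of UNx CreMinus was left out, 117 when replicate 3 of UNx CrePlus was, 24 without sham CrePlus replicate 1 and 4 to 18 without any 1 of the other 9. They became 0 without the 4 deep libraries together, a fit that compares 2 UNx CreMinus libraries with the sham CreMinus libraries. In that fit all 15 genes had the same sign and 10 were within 1.5 times of their size. The 15 had been picked on all 12 libraries, which include those of that fit, so kept signs are no independent support. DESeq2 log2 fold changes there were -1.12 for Kcnt1, 1.06 for Arntl, 1.505 for Cyp24a1, 0.78 for Mthfd2, 0.80 for Slc34a2 and 2.52 for Gabra3. Psat1 was at 0.54, Aldh1a7 at 0.33 and Mlph at 0.18. With 1 library left out, DESeq2 called Kcnt1 and Per3 in 12 of 12 fits, Cyp24a1 in 11 and Psat1 in 9. It called Slc34a2 in 6, and Arntl, Mthfd2 and Arhgap11a in 5. Stk32a, Mlph and Aldh1a7 were called in 4, and Sfpq, Pdia5, Gabra3 and 1700029J07Rik in 3. With a sex term DESeq2 called 44 genes (0.313%), 31 higher and 13 lower, which held all 15 and added among others Tef, Slc5a3 and Glyctk as lower and Npas2, Ifi44, Nusap1, Trp53inp1 and Slc25a30 as higher. With the same term edgeR called 0, with 1290 (8.62%) at an unadjusted p under 0.05.

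**Figure D5:**
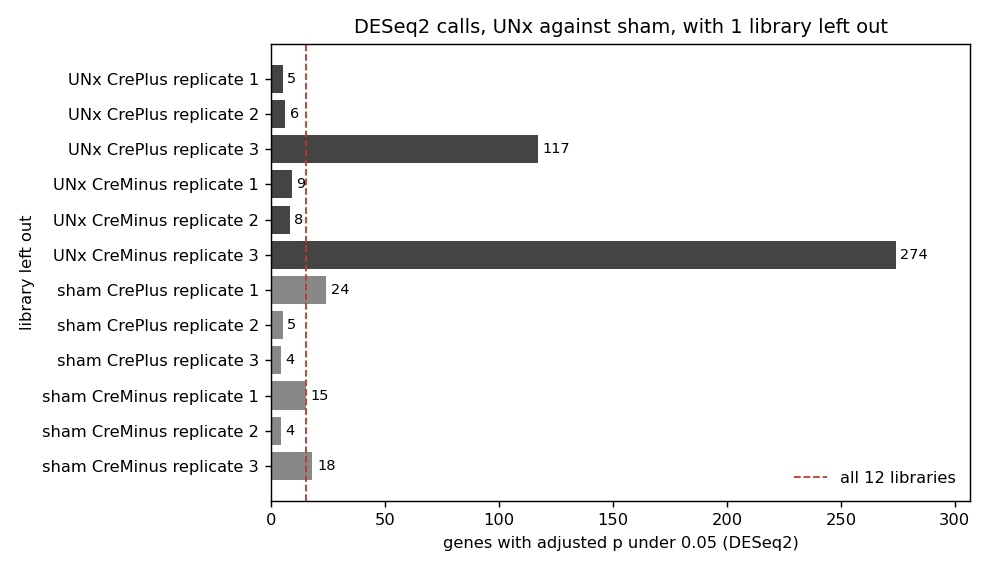
Number of genes with a DESeq2 adjusted p under 0.05 on the x axis, for UNx against sham with 1 of 12 libraries left out, named on the y axis, with UNx libraries as dark bars above sham libraries as grey bars and a dashed line at the 15 genes of all 12 libraries. The longest bars, 274 and 117, belong to the third replicates of UNx CreMinus and of UNx CrePlus.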

How the data were processed

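Kidney RNA-seq of 12 mice was analysed from deposited whole-number counts per gene. The kit, SMART-Seq v4 per the labels' protocols, does not mark the strand, so overlapping and antisense genes could not be separated. The authors used cutadapt 1.11, DESeq2, FastQC 0.11.5 and HTSeq, and the notes name mm10 and GRCm38, per the submitters' processing notes, while the aligner is not given in the sources used here. The deposited tables also hold the authors' log2 fold changes, p-values and adjusted p-values. After 5 repeated symbols with identical counts were kept once, 24062 genes remained, and filterByExpr kept 14970. In R 4.3.3, edgeR 4.0.16 fitted Cre status and surgery to TMM-scaled counts (glmQLFit, glmQLFTest, Benjamini-Hochberg adjustment, threshold 0.05), and a model of 4 group means gave the contrasts within Cre status and the interaction. SE was taken as |log2 fold change|/√F. DESeq2 1.42.0 and limma 3.58.1 (voom) were alternatives, beside a sex term, each sex alone, other scaling and filters, thinned depth and leaving out libraries. The fit was checked on simulated counts. Named genes were, per direction, the 10 of smallest p averaging 1 CPM or more with a non-systematic symbol, the 2 members of smallest p of the lists described, Pkd1 and Irf5. DESeq2 calls, further list members and, of lists with no member at an unadjusted p under 0.05, counts alone were added after values were seen. The genes and 44 lists were chosen with earlier results of these data known. Promoter windows are from RefSeq. PCR duplicates could not be told from separate molecules in these counts.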

Additional observations from a re-analysis of the deposited data

Results flagged for a closer look

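Single libraries far from the other 5 of their surgery group were looked for in 92 named genes with Dixon's criterion, which marks a sample whose gap to its nearest neighbour is more than 0.625 of the whole range of 6. In 184 groups, 17 (9.24%) were marked. Chance marks about 1 in 20 groups of 6 independent normal values. These groups hold CPM and pool Cre status and sex, so the share marked gives no test against chance. UNx CrePlus replicate 2 stood out with the highest Stk32a (6.62 CPM), Egr1 (50.2 CPM) and Irf5 (27.6 CPM) among UNx libraries. UNx CrePlus replicate 3 was highest for Nsdhl (114 CPM) and Tek (74.3 CPM), and UNx CrePlus replicate 1 for Per2 (34.1 CPM). UNx CreMinus replicate 2 was lowest for Phip (29.6 CPM) and highest for Cidec (0.782 CPM), and UNx CreMinus replicate 3 was highest for Pkd1 (71.6 CPM). Among sham libraries, sham CrePlus replicate 3 was highest for Cidec (6.13 CPM), Pparg (4.84 CPM), Irs2 (31.2 CPM) and Csf1r (100.5 CPM). Sham CrePlus replicate 2 was highest for Aqp3 (188 CPM) and Aqp2 (297 CPM), sham CrePlus replicate 1 for Bub1b (3.65 CPM) and sham CreMinus replicate 3 for Gabra3 (1.73 CPM).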

How the results depend on the processing

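With edgeR the count of called genes was 0 in all 10 alternatives run on all 12 libraries or on a stated subset (4 group means, surgery alone, a sex term, each sex alone, thinned depth, without the 4 deep libraries, size factors of DESeq2, and both filters), and 0 with limma-voom. Without 1 library it ranged from 0 to 7. DESeq2 gave 15 for UNx against sham, 9 in CrePlus, 2 in CreMinus kidneys and 0 for the interaction. The DESeq2 count of 15 became 44 with a sex term and ranged from 4 to 274 without 1 library. It became 0 without the 4 deep libraries, where 2 UNx libraries remained, both CreMinus and compared with the sham CreMinus libraries. There all 15 genes kept their sign, 10 of them within 1.5 times of their size. They had been picked on all 12 libraries, which include those of that fit, so kept signs are no independent support. The cause of these moves in the count was not tested. Of 92 named genes, 8 changed sign in 1 or more fits, in 15 of 2205 fold changes compared. In female libraries alone Bcl6 was at -0.053 and Slc4a1 at 0.21, and in male libraries alone Slc34a1 was at -0.039, Vdr at -0.039 and Aqp2 at 0.10. Without the 4 deep libraries Cish was at 0.20, Bcl6 at -0.52, Slc4a1 at 0.40, Cidec at 0.61 and Aqp2 at 0.068. That fit holds no UNx CrePlus library, so these are differences within CreMinus kidneys, and depth and Cre status change together in it. Leaving out 1 library, Irf5 ran from -0.25 to 0.065 and was above 0 without UNx CrePlus replicate 1 or 3, sham CrePlus replicate 3 or sham CreMinus replicate 3. Slc34a1 ran from -0.0051, without UNx CreMinus replicate 1, to 0.086. No paired analysis was possible because the labels give no replicate numbers. Counts of low genes limit what can be seen in the 8 shallower libraries.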
